A study of Trichoplusia ni and Spodoptera exigua with 20 samples.

Results

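Among the genes that were nearly silent in the fat body of control *S*. *exigua* larvae, the 100 with the highest expression under both inhibitors were followed through every library. The genes were selected on the deposited normalized values of the 9 *S*. *exigua* libraries. A gene had to lie under a value of 1 in all 3 controls, which 1723 of the 12380 genes in that table did. These were ranked by the smaller of the SFN mean and the TSA mean of log2(value + 1), and the first 100 were taken, or 5.80% of the nearly silent genes. Their high values under SFN and TSA and low values in controls are therefore the terms of the choice and not a result. How evenly the 6 treated libraries took part was not a term of the choice. It is not independent of the choice either, since a mean of 3 libraries can be carried by 1 of them. Most of the genes were not expressed in all 6 treated libraries, and the set is therefore called here by its rule. At a value of 1 or more, 19 of the 100 genes were expressed in all 6 treated libraries, and for 52 genes at least 80% of the summed treated expression came from SFN replicate 1 and TSA replicate 1. Every treated library lay above the highest control in 31 of the 100 genes, where 8.9% of all genes in the table had this, and all 3 SFN libraries lay above it in 66, where 15.1% of all genes had this. Both counts use the values by which the genes were chosen, and nothing is read from them.

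The libraries compared were 3 from larvae consuming SFN (70 mM), 3 from larvae consuming TSA (330 µM) and 3 from control larvae. All larvae were labelled WT and ate an artificial diet with antibiotics, onto which the inhibitor in ethanol, or for the controls ethanol alone, had been added and the ethanol left to evaporate. Each library was made from the fat bodies of 3 to 5 larvae pooled at about Day 10, so that a library is a mean over a few individuals. The series also holds libraries of *T*. *ni*, which were not used here.

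Histone deacetylases (HDACs) take acetyl groups off the tails of histones, and chromatin with fewer acetyl groups is in general packed more tightly and transcribed less. SFN, an isothiocyanate formed by cruciferous plants, and TSA, a hydroxamic acid made by *Streptomyces* bacteria, are both known as HDAC inhibitors. An inhibitor of these enzymes can raise acetylation and let silent genes be transcribed, although expression of many other genes falls as well. The fat body of a larva does the work that liver and adipose tissue share in vertebrates. It stores lipid and glycogen, makes the storage proteins of the haemolymph and releases antimicrobial peptides after infection. The *S*. *exigua* genes carry locus identifiers, of which 0 were matched to a gene name here. The members are for this reason described by identifier and expression, and neither their roles nor the marker genes of the fat body or of other tissues were examined. In bulk tissue, fewer cells of a type and less RNA per cell cannot be told apart.

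Between 29910259 and 35157218 reads were counted on genes in the control libraries, 24984839 and 27502512 in SFN replicates 1 and 3, and 25488363 to 28543809 under TSA. SFN replicate 2 was shallow, with 6352561 counts. The normalized value is a count divided by 1 factor for each library (its total times a TMM factor). It thus differs by the TMM factor from CPM, a count scaled to the size of its library. When CPM was used for the choice instead, 73 of the 100 genes were chosen again. A value of 1 stood for 8.80 counts in SFN replicate 2 and for 22.0 to 34.3 counts in the other 8 libraries. A value at the limit of 3 counts was 0.341 in SFN replicate 2 and 0.0874 to 0.136 elsewhere, which covers counting error only. The nearly silent state of the controls was thus well within what the sequencing could measure. The 100 genes held 1358, 764 and 660 counts in control replicates 1, 2 and 3, and a single gene had no count in any control.

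The 100 genes were expressed in very different numbers by the treated libraries. Of the set, 2 genes reached a value of 1 in 2 of the 6 treated libraries, 35 in 3, 24 in 4, 20 in 5 and 19 in all 6. The commonest combination was SFN replicates 1 and 3 with TSA replicate 1, in which 29 genes were expressed and no other treated library took part. Another 16 genes were expressed in all 3 SFN libraries and in TSA replicate 1 alone among the TSA libraries. In all, 50 genes had exactly 1 TSA library at a value of 1 or more, whereas 50 genes had all 3 SFN libraries there. A stricter level left almost none, since 1 gene had a value of at least 2 in all 6 treated libraries and 0 had a value of at least 5. At 10 raw counts, which is a lower level in most libraries, the number was 40.

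**Figure D1:**
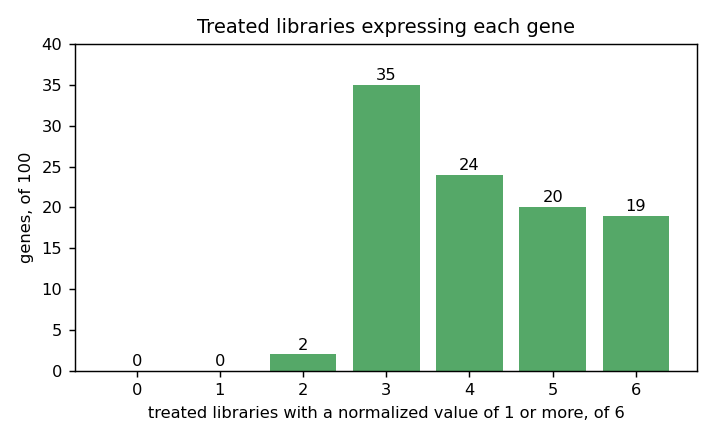
The bars give how many of the 100 genes (vertical axis) had a normalized value of 1 or more in the number of treated libraries on the horizontal axis, out of 3 SFN and 3 TSA libraries. The tallest bar is at 3 libraries with 35 genes, and 19 genes stand at all 6.

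The same count was made over all genes that were nearly silent in 1 group of 3 libraries. Of the 2156 genes under a value of 1 in all 3 SFN libraries, 3 were at 1 or more in the 6 other libraries (0.139%), and of the 2715 under 1 in all 3 TSA libraries, 7 were (0.258%). Of the 1723 under 1 in all 3 controls, 21 were at 1 or more in all 6 treated libraries (1.22%), and 19 of these are among the 100. SFN and TSA libraries each have the other inhibitor among the remaining 6, so these shares are not matched comparisons, and no test was made of them.

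Library by library, SFN replicate 1 and TSA replicate 1 stood apart. The summed normalized value of the 100 genes was 2132, 568.4 and 530.8 in SFN replicates 1, 2 and 3, and 1948, 156.2 and 168.3 in TSA replicates 1, 2 and 3, against 46.1, 31.5 and 26.7 in control replicates 1, 2 and 3. The sums of TSA replicates 2 and 3 lay below those of all 3 SFN libraries. As a share of all counted reads, the set made up 0.287% in SFN replicate 1 and 0.198% in TSA replicate 1, and between 0.0131% and 0.0787% in the other 4 treated libraries. The median gene of the set had a value of 9.80, 1.53 and 3.58 in SFN replicates 1, 2 and 3, and of 11.2, 0.546 and 0.554 in TSA replicates 1, 2 and 3. In TSA replicates 2 and 3 most of the set, 61 and 55 genes, therefore lay under the value of 1 that had been asked of the controls. The number of genes at 10 or more was 49, 11 and 16 in the SFN libraries and 51, 2 and 1 in the TSA libraries.

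**Figure D2:**
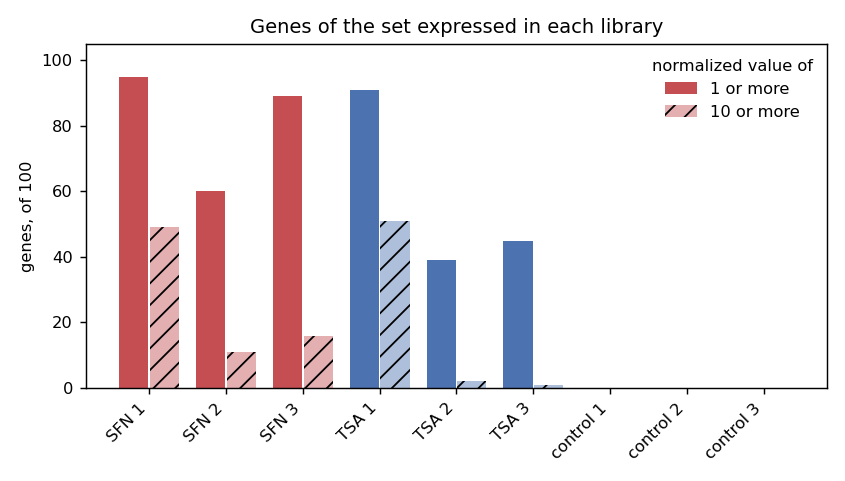
For each of the 9 libraries on the horizontal axis, the solid bar counts the genes of the set with a normalized value of 1 or more and the hatched bar those with 10 or more, of 100. SFN 1, SFN 3 and TSA 1 express 95, 89 and 91 genes, TSA 2 and TSA 3 express 39 and 45, and the controls have none by the way the set was chosen.

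Of the other 1623 genes that were nearly silent in controls, which the ranking had placed below the set, 50, 27 and 3 had a value of 10 or more in SFN replicates 1, 2 and 3 and 13, 0 and 3 in TSA replicates 1, 2 and 3. At a value of 1 or more these numbers were 413, 548 and 275 under SFN and 265, 112 and 244 under TSA. The order was thus not the same at both levels, since SFN replicate 2 led at 1 and SFN replicate 1 at 10, and TSA replicates 1 and 3 were close at 1. Over all 12380 genes of the table the 6 treated libraries were alike, with a Pearson's r of log2(value + 1) between 0.873 and 0.961 for any pair. Control replicate 1 had an r of 0.808 to 0.887 with the treated libraries, and of 0.862 and 0.868 with control replicates 2 and 3. Control replicates 2 and 3 had 0.660 to 0.776 with the treated libraries. Over the 100 genes, SFN replicate 1 and TSA replicate 1 had an r of 0.64, whereas TSA replicate 1 had an r of -0.55 with TSA replicate 2 and -0.83 with TSA replicate 3. These values of r run across genes that were chosen together, and are given as a description.

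By the share of the summed treated value that lay in SFN replicate 1 and TSA replicate 1, which would be 33.3% if all 6 libraries were equal, the set falls along a continuous range between 0.177% and 98.6% with a median of 80.8%. A share of 80% or more was found for 52 genes, 50% to 80% for 11 and less than 50% for 37. In the group of 52, the median value was 25.4, 0.682 and 4.43 in SFN replicates 1, 2 and 3 and 23.0, 0.182 and 0.117 in TSA replicates 1, 2 and 3, against 0.339, 0.165 and 0.141 in control replicates 1, 2 and 3. All 52 were at 1 or more in both SFN replicate 1 and TSA replicate 1, 48 in SFN replicate 3 and 19 in SFN replicate 2, but 7 in TSA replicate 2 and 2 in TSA replicate 3. The share adds SFN replicate 1 and TSA replicate 1 and does not show how evenly they took part. The limits of 80% and 50% were set after the values were seen and only order the description. That of 80% also makes the other treated libraries low beside the sum of SFN replicate 1 and TSA replicate 1 in the group of 52.

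**Figure D3:**
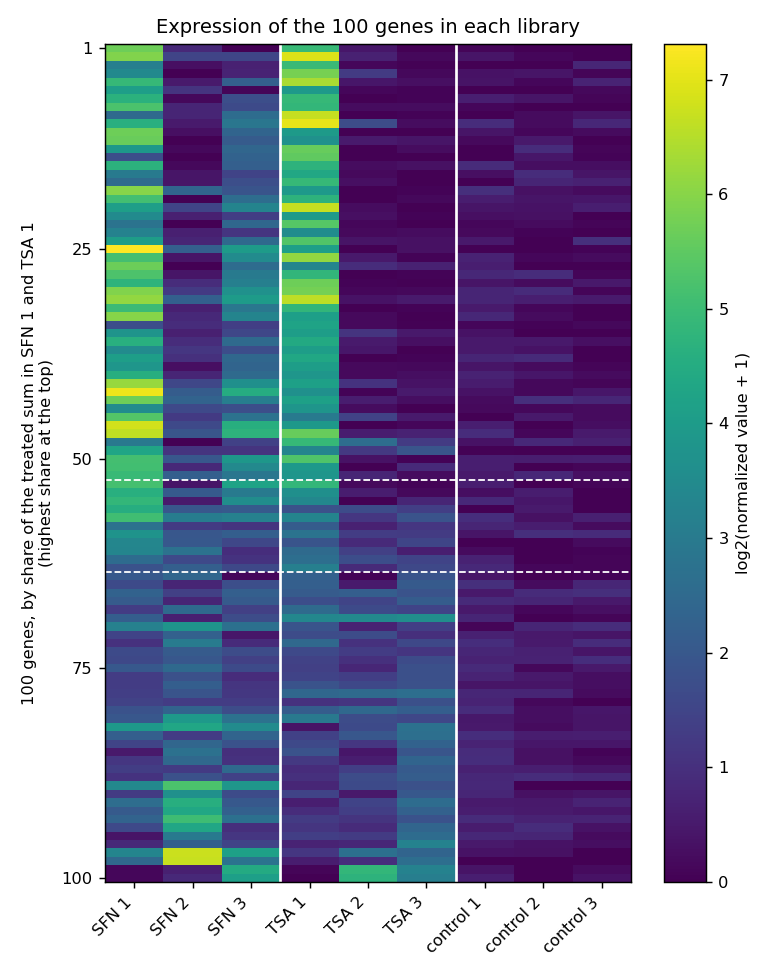
Each row is 1 of the 100 genes, ordered by the share of its treated sum in SFN 1 and TSA 1, each column is a library, and the color is log2(normalized value + 1). Above the upper dashed line lie the 52 genes with a share of at least 80%, bright in SFN 1 and TSA 1, weaker in SFN 3 and dark in TSA 2 and TSA 3, and below the lower dashed line lie the 37 genes with a share under 50%.

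The genes that led the ranking belonged to this pattern. HF086_007797, first with a ranking value of 2.67, had values of 23.6, 0.455 and 6.26 in SFN replicates 1, 2 and 3 and of 129.8, 2.23 and 0.175 in TSA replicates 1, 2 and 3, against 0.916, 0.165 and 0.767 in control replicates 1, 2 and 3. HF086_008790, the second, had 59.7, 1.82 and 1.90 under SFN and 121.6, 0.591 and 0.117 under TSA, against 0.339, 0.0826 and 0 in controls. Both were thus high in replicate 1 of each inhibitor, and in TSA replicate 3 both lay within the range of their controls. HF086_009167, the third, had 68.7, 3.75 and 15.2 under SFN and 95.5, 0.273 and 0.437 under TSA, against 0.679, 0.537 and 0.444 in controls. Its SFN libraries all lay above its controls, while TSA replicates 2 and 3 lay below all 3 controls. HF086_013572, HF086_009166, HF086_007798, HF086_018202, HF086_008778 and HF086_007598 among the first 15 shared the pattern. Their values were 15.7 to 96.2 in SFN replicate 1 and 39.3 to 101.4 in TSA replicate 1, and at most 0.612 in TSA replicates 2 and 3. Altogether 10 of the first 15 genes had a share of at least 80% in SFN replicate 1 and TSA replicate 1.

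A mean of 3 libraries can be carried by 1 of them, which is how genes with silent TSA replicates entered the set. The widest range over the treated libraries was that of HF086_017201, with 157.7, 3.64 and 15.0 under SFN and 16.6, 0 and 0.262 under TSA, against 0.0339, 0 and 0.0404 in controls. HF086_007288 had 139.1, 3.41 and 21.9 under SFN and 11.8, 0.0455 and 0.437 under TSA, against 0.271, 0.124 and 0.363 in controls. HF086_004779 had 110.3, 2.05 and 22.8 under SFN and 14.0, 0 and 0.0874 under TSA, against 0.543, 0 and 0.202 in controls. In these 3 genes every SFN library lay above the controls, whereas TSA replicates 2 and 3 were at 0.437 or less. The fewest libraries were found for HF086_009157, with 50.4, 0.795 and 0 under SFN and 29.1, 0.364 and 0 under TSA, against 0.0679, 0 and 0 in controls, and for HF086_002367, with 7.84, 0.227 and 0.599 under SFN and 29.9, 0.0910 and 0.0291 under TSA, against 0, 0 and 0.727 in controls. Each reached a value of 1 in SFN replicate 1 and TSA replicate 1 and in no other library. HF086_000813 and HF086_002021 were expressed in 3 treated libraries, SFN replicates 1 and 3 and TSA replicate 1, and had values of at most 0.699 in the other 3.

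The 19 genes expressed in all 6 treated libraries had more even medians. Asking for a value of 1 or more in each of these libraries favors this, and it is given as a description. The median value was 2.97, 2.95 and 2.26 in SFN replicates 1, 2 and 3 and 2.63, 2.14 and 2.56 in TSA replicates 1, 2 and 3, against 0.611, 0.372 and 0.323 in control replicates 1, 2 and 3. Of the 19, 12 stayed under 10 in every library, with a highest value of 5.36, and 7 reached 10 or more in at least 1 library. HF086_009644 had 3.95, 1.59 and 3.60 under SFN and 3.25, 3.55 and 2.68 under TSA, against 0.407, 0.867 and 0.969 in controls. HF086_000252 had 2.61, 3.98 and 2.26 under SFN and 3.36, 4.55 and 3.56 under TSA, against 0.916, 0.206 and 0.363 in controls. HF086_011936 had 3.65, 1.48 and 4.16 under SFN and 1.66, 2.96 and 5.36 under TSA, against 0.950, 0.496 and 0.525 in controls. None of the 3 genes had a treated library as low as its highest control, but the nearest values were 1.59 and 0.969 in HF086_009644 and 1.48 and 0.950 in HF086_011936. HF086_014033 and HF086_006747, 2 more with a narrow range, had treated values between 1.04 and 3.30. HF086_017712, also narrow, was expressed in 5 libraries, with 0.899 in SFN replicate 3.

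Among the 7 of these 19 genes that reached 10 or more, 4 belonged to the first 15 of the ranking. HF086_013420, with 1 count in all 3 controls together, had 18.8, 1.14 and 1.13 under SFN and 8.78, 1.32 and 2.83 under TSA, against 0.0339, 0 and 0 in controls. Its lowest treated library, at 1.13, thus stood against controls that were almost without reads. HF086_012468 had 32.8, 7.39 and 8.29 under SFN and 8.93, 1.23 and 2.68 under TSA, against 0.950, 0.248 and 0.565 in controls. HF086_010751 had 8.97, 104.4 and 16.8 under SFN and 1.24, 5.46 and 4.17 under TSA, against 0.271, 0.248 and 0 in controls. HF086_009379 had 2.97, 14.5 and 5.79 under SFN and 6.69, 2.23 and 1.92 under TSA, against 0.373, 0.206 and 0.323 in controls. The highest library was SFN replicate 1 for the first pair of these genes and SFN replicate 2 for the other pair.

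**Figure D4:**
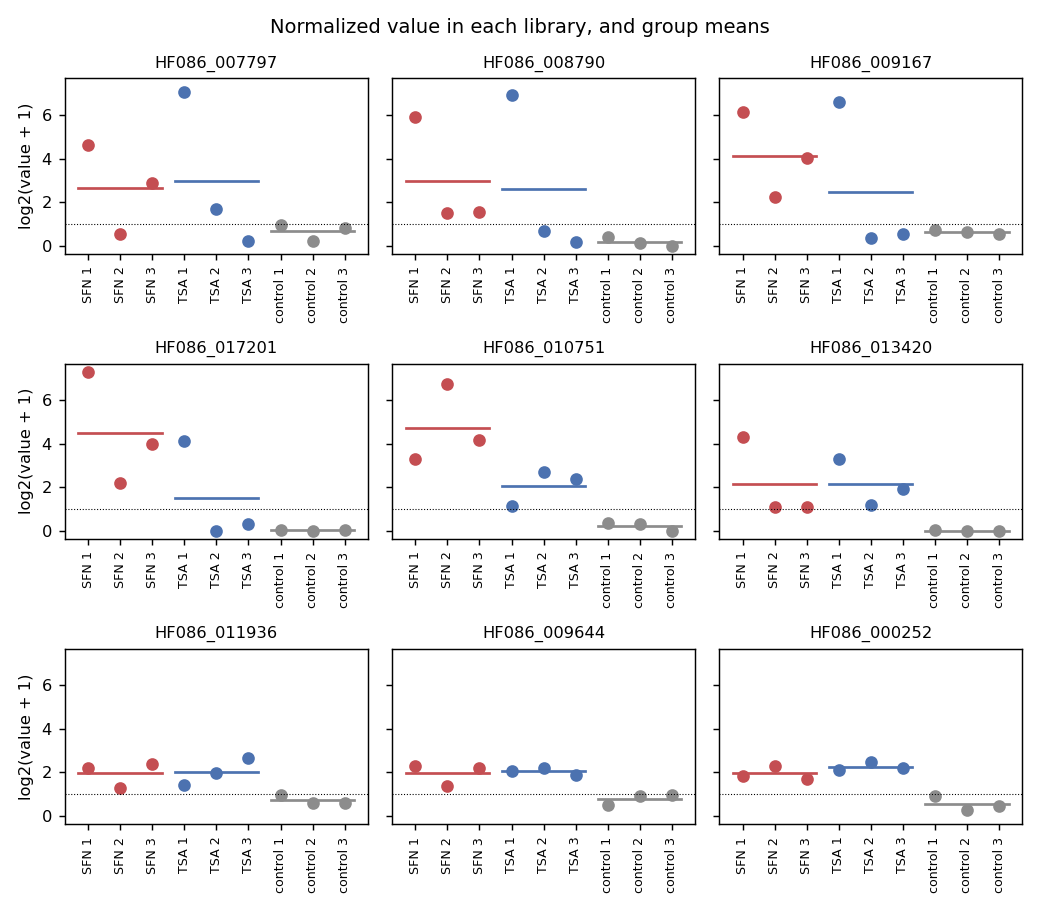
Points give log2(normalized value + 1) of 9 genes in each library, bars the mean of the 3 libraries of a group, and the dotted line a value of 1. The first 3 genes are carried by SFN 1 and TSA 1, HF086_017201 mainly by SFN 1 at 157.7, and HF086_010751 is highest in SFN 2 at 104.4. The bottom row shows genes with even, low expression in all 6 treated libraries.

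A smaller number of genes peaked elsewhere. Of the 37 genes with less than 50% of their treated sum in SFN replicate 1 and TSA replicate 1, 24 were highest in SFN replicate 2, the shallow library, and 7 in TSA replicate 3. HF086_012513, singled out after its values were seen because it had no count in any control, had 4.51, 103.5 and 5.86 under SFN and 0.503, 0.955 and 5.19 under TSA, against 0 in each control. It was 1 of 65 genes of the table with no control count. HF086_018298 and HF086_012870, also singled out after the values were seen, had the reverse of the main pattern. HF086_018298 had 0.0891, 0.568 and 21.0 under SFN and 0.0773, 27.6 and 8.54 under TSA, against 0.305, 0 and 0.162 in controls. HF086_012870 had 0.0891, 0.795 and 16.5 under SFN and 0, 25.3 and 7.75 under TSA, against 0.543, 0 and 0.283 in controls. These 2 genes were high in SFN replicate 3 and TSA replicates 2 and 3 and silent in SFN replicate 1 and TSA replicate 1.

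Differential expression was tested over all 12380 genes of the table, all members included, with edgeR's quasi-likelihood test and Benjamini-Hochberg adjustment. The comparisons with control contributed to the choice of the members and are given as a description. Against control, 19 of the 100 genes were called higher under SFN at an adjusted p under 0.05, where 1.42% of all genes were, and 11 were called higher under TSA, where 1.48% of all genes were. Both comparisons share the same 3 controls. Called under both were 6 genes, among them HF086_013420 and HF086_012468, which were expressed in all 6 treated libraries, but also HF086_009157, which had no count in SFN replicate 3 or TSA replicate 3. All 3 SFN libraries lay above all 3 controls in 66 of the 100 genes, against 15.1% of all genes, and all 3 TSA libraries in 38, against 15.1% of all genes. The members varied strongly within a group, with a median biological coefficient of variation of 0.908, against 0.559 over all tested genes. These calls depended on single libraries over the whole table and not in the set alone. Without control replicate 2, control replicate 3, SFN replicate 1 or SFN replicate 3, 0 of all 12380 genes were called in either comparison, members included. The same held for SFN against control without SFN replicate 2, and for TSA against control without TSA replicate 2 or TSA replicate 3. Called higher under SFN were 30 members and 9.94% of all genes without control replicate 1, and 5 members and 0.153% of all genes without TSA replicate 2. Called higher under TSA were 5 members and 0.42% of all genes without TSA replicate 1, and 7 members and 0.291% of all genes without SFN replicate 2. With SFN replicate 1 and TSA replicate 1 both left out, 15 members were called higher under SFN, where 5.58% of all genes were, and 7 under TSA, where 6.03% of all genes were. Of the 100 genes, 22 had a mean of over 10 CPM, the filter given in the methods of the study. With that filter, 0 of the 5497 genes tested were called in either comparison by this test, members included. No other test was run with that filter, and the study itself reported many genes altered by SFN or TSA in this species.

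SFN and TSA were compared directly, a difference that the choice of the genes did not set, although it favored genes present under both. No member was called (0 of 100, and 0% of all 12380 genes), with an adjusted p of 1 for every gene from edgeR's quasi-likelihood test. At an unadjusted p under 0.05, 15 members differed (13 higher and 2 lower under SFN), where 3.23% of all genes did. The likelihood ratio test of edgeR and the Wald test of DESeq2 called 4 members each, where they called 55 and 61 of all 12380 genes. The SFN libraries were completely separated from the TSA libraries, in either direction, in 9 of the 100 genes, close to the 10.1% of all genes in which they were. The median fitted log2 fold change of SFN over TSA was 1.15 for the members and 0.04 for all genes, and it was above 0 for 72 members. This median was 0.24 in the model without the replicate block. It was 2.66 without TSA replicate 1, 2.03 without SFN replicate 1, and 0.70 to 0.78 without TSA replicate 2, TSA replicate 3 or SFN replicate 3, so that its size depended on single libraries.

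The genes with the largest differences between the inhibitors were HF086_004779, HF086_017201, HF086_007288, HF086_008776 and HF086_014594, all with more expression under SFN. Their fitted log2 fold changes of SFN over TSA lay between 3.80 and 4.99. For HF086_004779 it was 4.99 (standard error 1.29, with an edgeR quasi-likelihood p of 0.0065 unadjusted and of 1 adjusted), yet SFN replicate 2 at 2.05 lay below TSA replicate 1 at 14.0. The lowest unadjusted p, 0.00239 in the same edgeR test (adjusted p = 1), belonged to HF086_012468, with a log2 fold change of 2.03 (standard error 0.43). Its SFN values of 32.8, 7.39 and 8.29 and its TSA values of 8.93, 1.23 and 2.68 overlapped too. The largest difference in the other direction was that of HF086_018331, named here after its values were seen. It had 3.50, 0.568 and 2.26 under SFN and 9.40, 9.82 and 11.2 under TSA, against 0.679, 0 and 0.0808 in controls, with a log2 fold change of SFN over TSA of -2.78 (standard error 0.99, and an edgeR quasi-likelihood adjusted p of 1). In this gene the 3 TSA libraries were nearly equal and all lay above the SFN libraries.

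Several members carried consecutive locus identifiers. There were 6 such runs holding 14 of the 100 genes, and 34 genes had another member within 15 identifiers. No such count was made for other sets of genes, so whether these numbers are unusual was not tested. The positions of the genes were not examined, so whether consecutive identifiers are neighbors on a chromosome was not tested. In the first of the 2 runs of 3 genes, HF086_002120 had 30.3, 3.64 and 6.29 under SFN and 13.1, 0.682 and 0.175 under TSA, against 0.407, 0.743 and 0.242 in controls. HF086_002121 had 10.5, 1.25 and 2.33 under SFN and 15.9, 0.364 and 0 under TSA, against 0.407, 0.289 and 0 in controls. HF086_002122 had 10.3, 0.568 and 1.53 under SFN and 14.9, 0.227 and 0.0583 under TSA, against 0.237, 0.248 and 0 in controls. All 3 were high in SFN replicate 1 and TSA replicate 1 and at or near control levels in TSA replicates 2 and 3. The run of HF086_007797 to HF086_007799 and the pairs HF086_008784 with HF086_008785, HF086_009166 with HF086_009167 and HF086_018201 with HF086_018202 had the same pattern, with at least 77.1% of each gene's treated sum in SFN replicate 1 and TSA replicate 1. The pair HF086_011081 and HF086_011082 did not, since HF086_011081 had 19.9% of its treated sum there and both genes were highest in SFN replicate 2.

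The limit of the set lies on a smooth slope. The last members, HF086_008601, HF086_012171 and HF086_014033, had ranking values of 1.32, 1.32 and 1.31, and the next genes outside, HF086_016861, HF086_007711 and HF086_010754, had 1.31, 1.31 and 1.29. HF086_014033 had 1.72, 1.48 and 1.47 under SFN and 1.04, 1.18 and 2.45 under TSA, against 0.645, 0.124 and 0 in controls. HF086_016861, the first gene outside, had 7.54, 7.39 and 0.733 under SFN and 4.95, 0.682 and 0.525 under TSA, against 0.509, 0.165 and 0.242 in controls. A ranking value over 1 was reached by 204 of the nearly silent genes.

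Which genes were chosen depended most on single libraries and on the level asked of the controls. Without TSA replicate 1 the same ranking kept 43 of the 100 genes, and without SFN replicate 1 it kept 81. Without both it kept 42, and of the 100 genes then chosen 45 were expressed in all 4 treated libraries that were used and 21 in all 6. Without control replicate 1 it kept 8. The 92 genes that came in had values of 1.02 to 36.2 in control replicate 1 (median 3.66). They came in by ranking values that reached 5.88, against 2.67 in the set described here. Their stronger expression under the inhibitors therefore follows from the ranking. Leaving out any other library kept 71 to 95 genes. Asking for values under 0.5 or under 2 in the controls kept 38 or 28 genes, and asking for no control count at all kept 1.

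**Figure D5:**
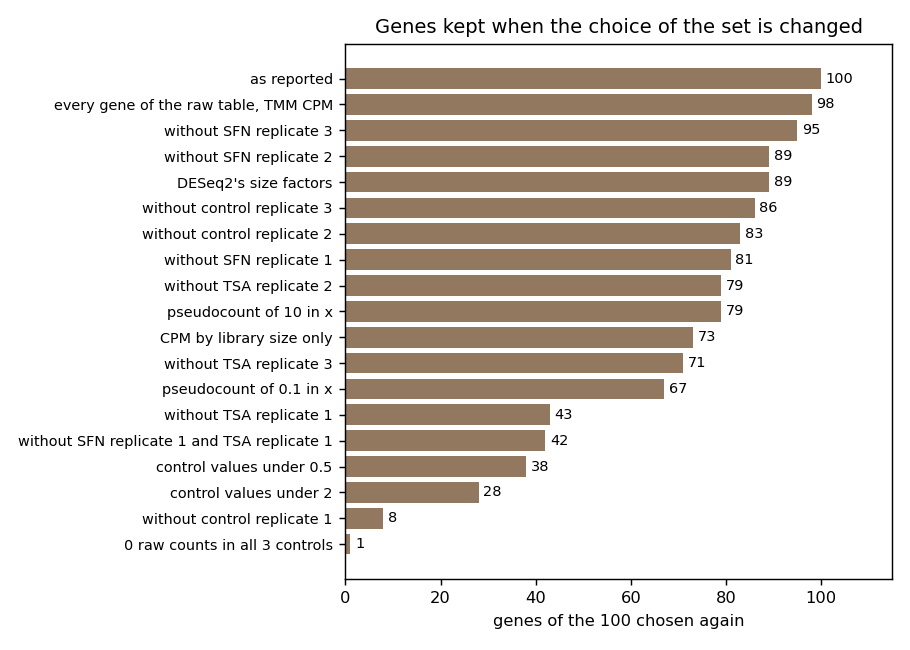
Each bar gives how many of the 100 genes were chosen again when 1 part of the choice was changed, as named on the left. The shortest bars are those for no counts in any control (1 gene) and without control replicate 1 (8 genes), and that without TSA replicate 1 stands at 43 genes.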

How the data were processed

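RNA-seq reads of 9 *S*. *exigua* libraries were trimmed by the authors with Trimmomatic (v0.39), aligned with HISAT2 (v2.2.1) to the TB_SE_WUR_2020 genome and counted per gene with featureCounts. The authors deposited raw counts for 18477 genes, with no normalization. They also deposited a normalized signal for a subset of 12380 genes. It is the raw count over 1 factor for each library, since 100% of its values gave back the whole counts (within 0.01). Libraries were grouped by their labels, and 0 columns had no mapped sample. Nothing in the labels says whether replicates came from separate cohorts, so p-values measure only the spread between these pools.

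The 100 genes were chosen from the normalized values with a pseudocount of 1, and expressed means a value of at least 1. Tests used the raw counts in edgeR 4.0.16 (R 4.3.3), TMM, and quasi-likelihood tests, adjusted over 12380 genes by Benjamini-Hochberg with a threshold of 0.05, with treatment and replicate number as a block, a reading of the pairing named in the study's methods. Standard errors are the log2 fold change over the square root of F. Whole reads were recovered exactly as the raw counts, so the count test on them is the test reported. Alternatives were DESeq2 1.42.0, other scalings, filters and tests, no block, and each library left out. Both replicates 1 left out together was added after seeing the data. The genes named were the 15 highest, the 5 with the largest SFN to TSA difference, the 5 widest and 5 narrowest ranges, 3 on each side of the limit, the first of the longest runs of identifiers and 5 expressed in the fewest libraries. The members and lists were chosen with earlier results of these data known. Figures used matplotlib 3.10.9.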

Additional observations from a re-analysis of the deposited data

How the results depend on the processing

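Limits of depth touch SFN replicate 2 most, where a value of 1 is 8.80 counts. Of the 100 genes, 38, 28 and 1 were chosen again with control values under 0.5, under 2 or with no control counts, and 42 without SFN replicate 1 and TSA replicate 1. With 1 library left out the number ranged from 8 to 95. The other 5 changes kept 67 to 98 genes. The count of 19 genes expressed in all 6 treated libraries was 1 at a value of at least 2, 0 at 5 and 40 at 10 raw counts. With 1 treated library left out it ranged from 20 to 26, but it then covers only the remaining libraries and cannot fall. Between SFN and TSA, the quasi-likelihood test called 0 members under all its settings (0 to 0 with 1 library left out), and the likelihood ratio test and DESeq2 called 4 and 4 (0.444% and 0.493% of all genes). The median log2 fold change of SFN over TSA ranged from 0.70 to 2.66 with 1 library left out. Members called higher under SFN than in controls numbered 37 with library size only (6.64% of all genes), 0 with a mean CPM over 10 (0% of all genes), 56 by likelihood ratio (7.62%), 67 by DESeq2 (9.63%) and 0 to 30 with 1 library left out. Under TSA they numbered 0 with a mean CPM over 10 and 0 with only the libraries compared (0% of all genes in both), 36 by likelihood ratio (6.32%), 41 by DESeq2 (8.72%) and 7 (6.03%) without SFN replicate 1 and TSA replicate 1, and 0 to 14 with 1 library left out. The cause was not tested. Without the replicate block the counts were 27 under SFN (3.59% of all genes), 13 under TSA (3.13%) and 0 between the inhibitors. Whether the replicate numbers pair the libraries cannot be decided from correlations among so few libraries. Deviations from the group means of same-numbered libraries had an r of -0.11 to 0.39 (median 0.01). Other pairs had -0.34 to 0.29 (median -0.01). The highest, 0.39, was that of SFN replicate 1 with TSA replicate 1.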

Other observations

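The pattern of high expression in replicate 1 of both inhibitors was also found outside the set. Over the whole table, 98 of the 12380 genes met all of the following limits at once. Their value was at least 10 in both SFN replicate 1 and TSA replicate 1, and under 1 in TSA replicates 2 and 3. Of these, 38 belong to the 100 genes, and 41 were under 1 in all 3 controls. Their median value was 43.5, 1.25 and 9.09 in SFN replicates 1, 2 and 3 and 44.5, 0.182 and 0.175 in TSA replicates 1, 2 and 3, against 0.679, 0.867 and 0.363 in control replicates 1, 2 and 3. These limits were set after seeing the data, and they fix the high or low medians of SFN replicate 1 and of the TSA libraries. No other pair of libraries was counted in this way. The part of any other tissue in these libraries was not tested.

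Control replicate 1 expressed genes that the other controls did not, and the same was not counted for control replicates 2 and 3. Of the 2177 genes under a value of 1 in control replicates 2 and 3, 454 were at 1 or more in control replicate 1, and 160 of them also in all 6 treated libraries. Of the 1723 genes under 1 in all 3 controls, 21 were at 1 or more in all 6 treated libraries. The 454 had to be expressed in control replicate 1, so these counts are not matched.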
